A study of Mus musculus with 10 samples.

Results

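The Ikaros family comprises 5 genes in the mouse, Ikzf1 (Ikaros), Ikzf2 (Helios), Ikzf3 (Aiolos), Ikzf4 (Eos) and Ikzf5 (Pegasus), and all 5 were found by gene name among the 55809 gene rows of 10 bulk RNA-seq count files. T_reg cells came from spleen and lymph nodes of mice in which the endogenous Foxp3 gene encodes Foxp3 with an auxin-inducible degron (AID). All mice, the controls included, carried this Foxp3-AID allele and received 5-ph-IAA, the auxin analog, for 14 days. In the 6 R26-TIR1(F74G) libraries (replicates 5 to 10) the ROSA26 locus carried TIR1(F74G), the plant ubiquitin ligase subunit that directs the AID fusion to degradation when 5-ph-IAA is present. In the 4 R26-WT libraries (replicates 1 to 4) the ROSA26 locus was wild type and the fusion protein was not targeted. TIR1(F74G) and an mCherry reporter are switched on only after Cre, which the Foxp3 allele itself encodes, removes a STOP cassette. The study's methods describe a general sort on ZsGreen, which the Foxp3 allele also encodes, and where TIR1 is present on mCherry too. The gate of these 10 libraries is not given there, and where the general scheme was used, gate and genotype cannot be told apart. Names in the file headers mark the mice as male, and the labels give no age. For other experiments the study chose heterozygous females, because degradation mildly raised inflammation in hemizygous males. A change from Foxp3 loss within the cells and one from an altered surrounding cannot be told apart here. The comparison asks which transcripts of the family differ in T_reg cells after Foxp3 protein has been degraded for this period.

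Ikaros family proteins are zinc finger transcription factors. The zinc fingers near the N terminus bind DNA, and the pair at the C terminus joins family members to each other as homodimers and heterodimers. Ikaros recruits the NuRD chromatin remodelling complex and SIN3 and CTBP corepressors, and Ikaros and Aiolos are degraded by the cereblon ubiquitin ligase in the presence of thalidomide analogs. Ikaros and Aiolos are expressed across the lymphoid lineages. Helios is abundant in T_reg cells, above all in those of thymic origin, and contributes to their stability, while Eos is known as a partner of Foxp3 in repression of genes such as Il2. Pegasus is the most divergent member and is less studied in T cells.

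The stretches below show how alike the members are, since close copies could share reads. They are the coding window of 60 bases in which the other 4 canonical transcripts, aligned without gaps, had the most bases in common with Ikzf1, and it lies in the C-terminal zinc finger region. Shorter runs outside it can be closer between a given pair. The bases are written from 5′ to 3′ in the sense of the gene, and capitals mark the 35 positions that carry the same base in all 5 genes. All lie in the last coding exon. By the GENCODE M39 annotation of GRCm39, they are at chr11:11719453-11719512 (Ikzf1, plus strand, exon 8 of 8), chr1:69577990-69578049 (Ikzf2, minus strand, exon 8 of 8), chr11:98357881-98357940 (Ikzf3, minus strand, exon 8 of 8), chr10:128469980-128470039 (Ikzf4, minus strand, exon 8 of 8) and chr7:130993429-130993488 (Ikzf5, minus strand, exon 4 of 4).
Ikzf1: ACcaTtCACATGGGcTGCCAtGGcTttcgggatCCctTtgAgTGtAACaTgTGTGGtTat
Ikzf2: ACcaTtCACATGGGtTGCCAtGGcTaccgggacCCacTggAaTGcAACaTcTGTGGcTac
Ikzf3: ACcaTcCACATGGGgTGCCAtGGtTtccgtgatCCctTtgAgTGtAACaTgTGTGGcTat
Ikzf4: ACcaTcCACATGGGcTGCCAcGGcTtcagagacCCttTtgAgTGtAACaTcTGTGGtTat
Ikzf5: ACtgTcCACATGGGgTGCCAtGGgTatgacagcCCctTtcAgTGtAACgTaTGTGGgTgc

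Even in this stretch the genes were distinct at the scale of a sequencing read. Ikzf3 shared 54 of the 60 bases with Ikzf1 (90%), Ikzf4 shared 52 (86.7%), Ikzf2 shared 48 (80%) and Ikzf5 shared 42 (70%). The longest identical run between transcripts of any 2 members was 32 bases (Ikzf2 and Ikzf4), and 0 of the stretches of 50 bases in any member occurred in another. Overlap with neighbouring genes was a separate matter. Ikzf1 (chromosome 11, 11634980 to 11722926, plus strand) and Ikzf3 (chromosome 11, 98355728 to 98436857, minus strand) shared 0 exon bases with other genes of the count files. Ikzf2 (chromosome 1, 69570373 to 69726404, minus strand) shared 1.24% and Ikzf4 (chromosome 10, 128466712 to 128505227, minus strand) 0.573%. Ikzf5 (chromosome 7, 130990381 to 131012250, minus strand) shared 84.5% of its 5721 exon bases, 4652 of them with the exons of Pstk on the opposite strand. All 1363 of its coding bases lay in the shared portion, and the 886 unshared bases held 0 coding bases. The file headers give no strand option, so read pairs that fell on Ikzf5 and Pstk alike went to neither gene, and the Ikzf5 count covers a small, non-coding portion of its transcript.

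The libraries held from 24158699 (R26-TIR1(F74G) replicate 8) to 54795718 (R26-WT replicate 1) counted read pairs. The 37 mitochondrial gene rows held 0 counts in every library and were not analysed. Counts were divided by DESeq2 size factors, and the quotient is called the normalized count below. All 5 members passed the filter of a mean count of at least 10, with raw counts per library of 4491 or more for Ikzf1 and from 79 to 167 for Ikzf5. The counting error (Poisson) of a single library therefore lay between 0.819% and 1.49% for Ikzf1 and between 7.74% and 11.3% for Ikzf5, and it excludes any error from cDNA amplification. The labels name each library for a mouse of its own, so p-values measure the spread between mice together with the technical spread.

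The difference between the genotypes was within the spread of the replicates for every member of the family. DESeq2 called 0 of 5 members, against 1.74% of the 16363 tested genes (1.4% higher and 0.336% lower in R26-TIR1(F74G)). For Ikzf1, which encodes the founding member of the family, the R26-WT libraries had 8199, 10182, 6374 and 6858 normalized counts. The 6 R26-TIR1(F74G) libraries had 8890, 7327, 13792, 7944, 6423 and 7653. Replicate 7 was the highest of all 10 libraries and the only R26-TIR1(F74G) library above the R26-WT range, and R26-WT replicate 2 came next. The log2 fold change of R26-TIR1(F74G) over R26-WT was 0.13 (SE 0.22), or 9.73% with a 95% confidence interval from -18.6% to 47.9% (DESeq2 adjusted p 0.99996). Without R26-TIR1(F74G) replicate 7 the log2 fold change was -0.05, so its sign rested on that library.

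Ikzf3 encodes Aiolos, the member nearest to Ikaros in the stretch shown above. Its normalized counts were 4633, 6199, 3540 and 3678 in R26-WT and 4827, 4152, 6425, 4898, 4322 and 5163 in R26-TIR1(F74G). Again R26-TIR1(F74G) replicate 7 and R26-WT replicate 2 were the highest of their groups, and the ranges overlapped. The log2 fold change was 0.14 (SE 0.19, 95% confidence interval from -0.23 to 0.50, DESeq2 adjusted p 0.99996). Leaving out R26-WT replicate 2 raised it to 0.33, with an unadjusted p of 0.0479 and an adjusted p of 0.490 in DESeq2, the smallest p of any member in any fit. Omitting R26-WT replicate 3 or 4 lowered the log2 fold change to 0.04 and 0.05, and it was also 0.05 when R26-TIR1(F74G) replicate 7 was left out.

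**Figure D1:**
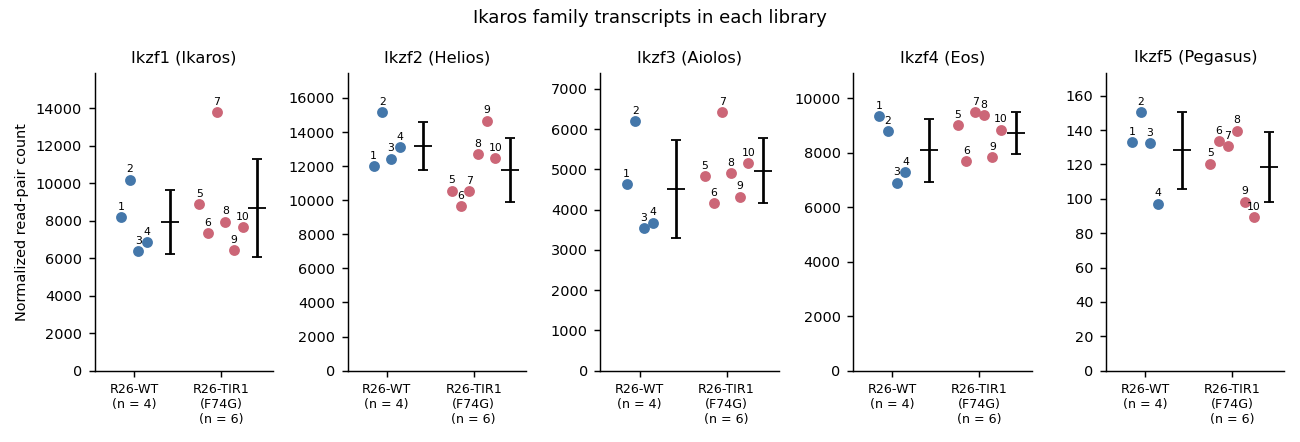
Normalized read-pair counts (vertical axes, starting at 0) of the 5 Ikaros family genes in each library, with R26-WT in blue and R26-TIR1(F74G) in red. Numbers are replicates, and black marks are the group mean ± SD. The groups overlap in all 5 panels, and R26-TIR1(F74G) replicate 7 stands at the top for Ikzf1 (13792) and Ikzf3 (6425).

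Helios, encoded by Ikzf2, was the member with the most counts. R26-WT libraries had 12007, 15176, 12448 and 13127 normalized counts of Ikzf2, and R26-TIR1(F74G) libraries had 10559, 9634, 10552, 12714, 14676 and 12461. Of the 6 R26-TIR1(F74G) libraries, 3 lay below every R26-WT library and 0 above. The group means were 13190 ± 1402 (SD, n = 4) and 11766 ± 1862 (SD, n = 6), and DESeq2 gave a log2 fold change of -0.16 (SE 0.14). The 95% confidence interval allowed changes from -26.5% to 8.27% (DESeq2 adjusted p 0.99996).

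Eos, encoded by Ikzf4, had the smallest SE of the family on the log2 scale. Its normalized counts were 9348, 8787, 6906 and 7294 in R26-WT and 9020, 7702, 9496, 9371, 7827 and 8849 in R26-TIR1(F74G). The R26-TIR1(F74G) range lay almost wholly inside that of R26-WT, with 2 of 6 libraries above it. The log2 fold change was 0.11 (SE 0.12), with a 95% confidence interval from -9.06% to 27.7% (DESeq2 adjusted p 0.99996).

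Pegasus, encoded by Ikzf5, had by far the fewest counts, taken over the unshared portion described above. R26-WT libraries had 133.0, 150.5, 132.7 and 97.2 normalized counts, and R26-TIR1(F74G) libraries had 120.5, 133.5, 130.5, 139.7, 98.4 and 89.4. The ranges overlapped, with the lowest value in R26-TIR1(F74G) replicate 10. The log2 fold change was -0.12 (SE 0.20, DESeq2 adjusted p 0.99996), with a 95% confidence interval from -29.4% to 20.2%.

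**Figure D2:**
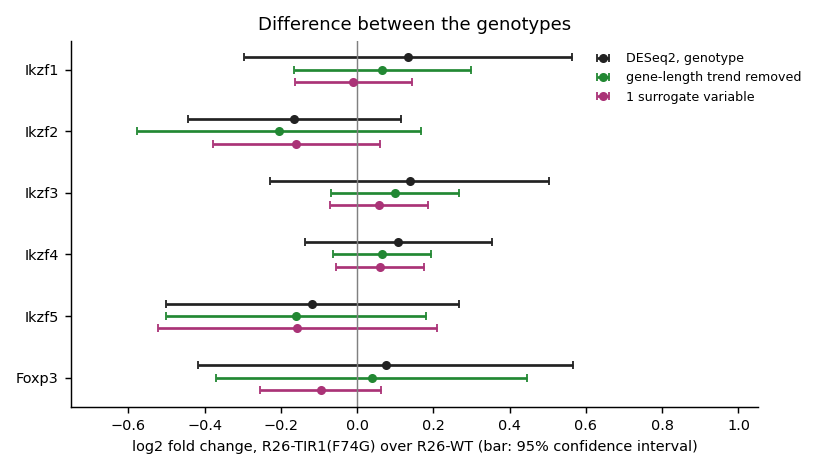
Log2 fold change of R26-TIR1(F74G) over R26-WT (horizontal axis) for the 5 members and Foxp3, by DESeq2 with genotype as the only term (black), with the gene-length trend of the libraries removed (green) and with 1 surrogate variable (magenta). Bars are 95% confidence intervals, and every bar crosses 0. The green and magenta fits are not independent, since the surrogate variable followed the length trend.

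No member passed the threshold in other fits of the same comparison. The edgeR quasi-likelihood test gave all 5 an adjusted p of 0.999, and it called 0.373% of tested genes. With limma voom 0 of 5 members and 0.489% of tested genes were called. A surrogate variable, an unlabelled source of variation estimated from all tested genes, narrowed the intervals of all 5. It followed the libraries' trend on gene length described below, so this fit and the one with that trend removed are not independent. In that fit Ikzf1 was at -0.69% (95% confidence interval from -10.7% to 10.4%), Ikzf3 at 4.03% (-4.81% to 13.7%) and Ikzf4 at 4.19% (-3.78% to 12.8%). Ikzf2 was at -10.5% (-23.1% to 4.14%) and Ikzf5 at -10.3% (-30.4% to 15.5%), and the smallest adjusted p of the 5 was 0.623 (DESeq2, Ikzf2). At an unadjusted p under 0.05, DESeq2 and edgeR each had 0 of 5 members, against 6.86% and 6.21% of all those tested. Groups separated fully in normalized counts for 0 of 5 members and for 2.37% of tested genes. The median log2 fold change of the family was 0.11, with 3 members positive and 2 negative, and the median of all tested genes was 0.00063. The intervals above say which sizes of change the libraries could not distinguish from none, and they do not show equal expression. In bulk libraries, a lower share of cells that express a gene and less RNA per cell cannot be told apart.

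The ratios between members were examined because they do not depend on library scaling. All 10 log2 ratios between pairs of members overlapped between the groups. The log2 ratio of Ikzf1 to Ikzf2 ran from -0.97 to -0.55 in R26-WT and from -1.19 to 0.39 in R26-TIR1(F74G). Its range was the widest of the 10 ratios in R26-TIR1(F74G) but not in R26-WT. R26-TIR1(F74G) replicate 7 was the only library with more counts of Ikzf1 than of Ikzf2. The log2 ratio of Ikzf1 to Ikzf3, in contrast, stayed between 0.72 and 0.90 in R26-WT and between 0.57 and 1.10 in R26-TIR1(F74G).

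Levels of different genes were compared per exon length, as TPM (each gene's count per exon base, scaled to the same total in every library) over all exon bases given in the files. Over the 10 libraries Ikzf4 had the highest mean level, 90.8 TPM, followed by Ikzf2 with 73.1 TPM, Ikzf1 with 64.2 TPM, Ikzf3 with 38.1 TPM and Ikzf5 with 1.48 TPM. Foxp3, the gene that marks these cells, had a mean level of 141 TPM, with 31.5% of its exon bases shared with other genes and so likewise open to lost read pairs. Ikzf4 stood above 86.3% of tested genes by this measure, Ikzf2 above 83.1%, Ikzf1 above 80.8%, Ikzf3 above 71.5% and Ikzf5 above 19.3%. The place of Ikzf5 is too low to the extent that read pairs on its shared exon bases were not counted. Of the family's summed TPM, Ikzf4 held 33.1% ± 2.76 (SD) in the 4 R26-WT and 34.7% ± 1.97 (SD) in the 6 R26-TIR1(F74G) libraries. Ikzf2 held 30.2% ± 3.18 and 26.2% ± 4.91 (SD) in the same groups, and the shares overlapped between the groups.

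The order of the upper members did not exceed the spread between libraries. Ikzf4 was above Ikzf2 per length in 2 of 4 R26-WT and 5 of 6 R26-TIR1(F74G) libraries, and Ikzf2 above Ikzf1 in 4 of 4 and 4 of 6. Ikzf1 was above Ikzf3 in all 10 libraries, although the ranges of the 2 genes overlapped within each group. Ikzf5 was below every other member with no overlap. Counted over its 886 unshared bases alone, Ikzf5 came to 9.56 TPM, still the lowest of the family. With the length of the canonical transcript in place of all exon bases, a choice made after seeing the data, the order became Ikzf4, Ikzf1, Ikzf3, Ikzf2 and Ikzf5, and only Ikzf4 and Ikzf5 kept their rank. Ikzf1 was then above Ikzf3 in 4 of 4 R26-WT but 3 of 6 R26-TIR1(F74G) libraries, and the ratio of their mean levels went from 1.69 to 1.08. The mean share of Ikzf3 in the family went from 14.1% to 22.8%. The order of Ikaros, Helios and Aiolos thus rested on the length they were divided by.

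**Figure D3:**
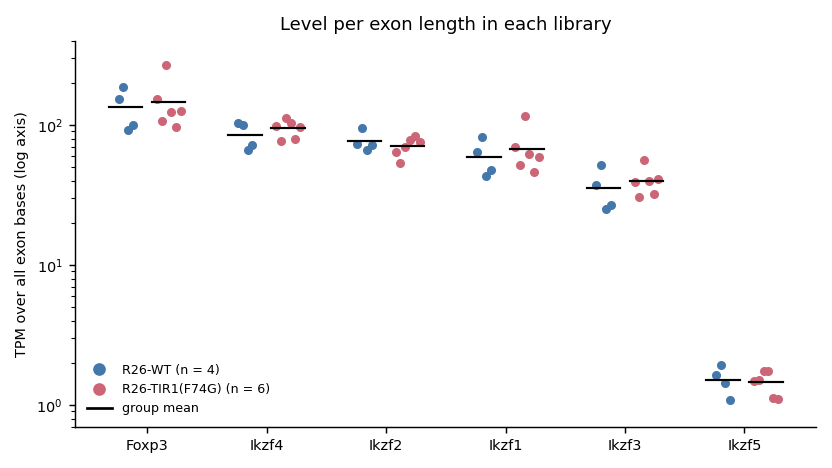
Level in TPM over all exon bases (vertical log axis) of Foxp3 and the 5 members in each library, with R26-WT in blue, R26-TIR1(F74G) in red and black lines at group means. Ikzf4, Ikzf2 and Ikzf1 overlap, with means of 90.8, 73.1 and 64.2 TPM, Ikzf3 lies lower at 38.1 TPM over all exon bases (not so with canonical transcript lengths), and Ikzf5 is far below at 1.48 TPM, or 9.56 TPM over its unshared bases.

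Within the groups, Ikzf1, Ikzf3 and Ikzf4 were the members that varied most closely together from library to library. Group means were subtracted from log2(normalized count + 1), and 10 pairs of members were correlated over the 10 libraries. For Ikzf1 and Ikzf3, Pearson's r was 0.88 (exact permutation p 0.00203, Benjamini-Hochberg adjusted 0.0203) and Spearman's rho 0.82 (exact permutation p 0.00787, adjusted 0.0330). Without the 2 libraries farthest from the median of Ikzf1, r was 0.71. In every pair the 2 libraries left out were chosen by the first gene named alone, so they can differ between pairs. For Ikzf3 and Ikzf4, r was 0.80 (exact permutation p 0.0213, adjusted 0.0710) and rho 0.89 (exact permutation p 0.00990, adjusted 0.0330), and r was 0.93 without the 2 farthest libraries. For Ikzf1 and Ikzf4, r was 0.71 (exact permutation p 0.0208, adjusted 0.0710) and rho 0.85 (exact permutation p 0.00359, adjusted 0.0330), and r was 0.84 without the 2 farthest. By Pearson's r 1 of the 10 pairs, and by Spearman's rho 3, passed an adjusted p of 0.05. The pairs with Ikzf2 had r from -0.31 to 0.17, and those of Ikzf5 with Ikzf1, Ikzf3 and Ikzf4 had r from 0.38 to 0.48, none past the threshold by either measure. Without the 2 farthest libraries, r for Ikzf4 and Ikzf5 rose from 0.38 to 0.76.

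The joint variation went with a trait of the libraries as a whole. Each library's slope of log2 normalized count, relative to the mean of all libraries, on log2 gene length was computed over genes with a mean normalized count of at least 50. It ran from -0.14 (R26-WT replicate 3) to 0.17 (R26-TIR1(F74G) replicate 7), so long genes had relatively more counts in R26-TIR1(F74G) replicate 7 and R26-WT replicate 2 (0.11) than in R26-WT replicates 3 and 4. The surrogate variable of the fit above put the 10 libraries in the reverse order. It ran from 0.45 in R26-WT replicate 3 to -0.58 in R26-TIR1(F74G) replicate 7. Over the 10 libraries, with group means removed, Pearson's r with the slope on gene length was 0.93 for Ikzf1, 0.95 for Ikzf3 and 0.90 for Ikzf4. The exact permutation p-values, adjusted over 5 relations, were 0.000289, 0.00246 and 0.00714, and for Ikzf1 the raw value of 5.79e-05 was the smallest the permutations can give. Spearman's rho was 0.96, 0.90 and 0.90 (adjusted exact permutation p 0.000579, 0.0100 and 0.00868). The 2 libraries farthest in slope were R26-WT replicate 2 and R26-TIR1(F74G) replicate 7, and without them r was 0.90, 0.93 and 0.98. Ikzf5 had an r of 0.46 and rho of 0.47 (adjusted exact permutation p 0.287 and 0.251, r of 0.23 without the 2 farthest). Ikzf2, which has the most exon bases of the family (11613), had an r of -0.05 and rho of -0.22 (adjusted exact permutation p 0.901 and 0.530, r of -0.16 without the 2 farthest). These relations were examined after seeing the data.

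**Figure D4:**
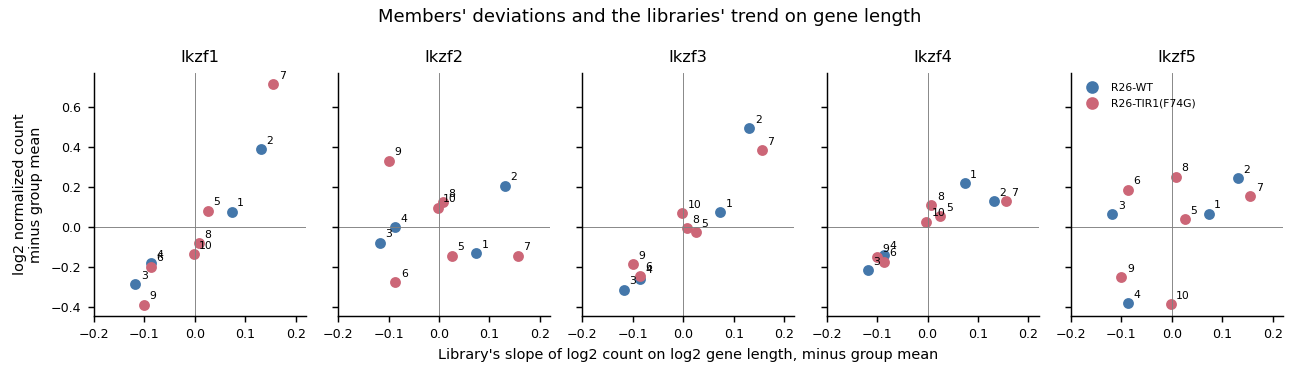
Log2 normalized count minus the group mean (vertical axis) against the library's slope of log2 count on log2 gene length minus the group mean (horizontal axis), 1 panel for each member, with R26-WT in blue, R26-TIR1(F74G) in red and replicate numbers beside the points. Ikzf1, Ikzf3 and Ikzf4 rise with the slope (r of 0.93, 0.95 and 0.90), and Ikzf2 does not (r of -0.05).

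The spread within groups changed with the same trait. When each library's smooth trend on gene length was removed, the coefficient of variation of Ikzf1 went from 21.6% to 5.63% in R26-WT and from 30.4% to 15.3% in R26-TIR1(F74G). That of Ikzf3 went from 27.1% to 10.9% and from 16.3% to 4.74%, and that of Ikzf4 from 14.5% to 5.27% and from 8.84% to 4.87%. Ikzf2 moved the other way, from 10.6% to 15.0% and from 15.8% to 25.8%. For comparison, genes with a mean of at least 1000 normalized counts had a median coefficient of variation of 16.6% in R26-WT and 13.1% in R26-TIR1(F74G) before removal. With the trend removed the log2 fold changes were 0.07 (SE 0.12) for Ikzf1, -0.21 (SE 0.19) for Ikzf2, 0.10 (SE 0.09) for Ikzf3, 0.07 (SE 0.07) for Ikzf4 and -0.16 (SE 0.17) for Ikzf5, and 0 of 10 pairs of members were correlated past the threshold. Directions also turned. For Ikzf1 and Ikzf4, r was -0.71 (exact permutation p 0.0214, adjusted 0.139) and rho -0.78 (exact permutation p 0.0108, adjusted 0.108), and r was -0.30 without the 2 farthest libraries. For Ikzf3 and Ikzf4, r was -0.37 and rho -0.10 (adjusted exact permutation p 0.685 and 0.798), and for Ikzf1 and Ikzf3 r was 0.33 and rho -0.10 (adjusted exact permutation p 0.685 and 0.798). For Ikzf1 and Ikzf2, r was -0.78 and rho -0.59 (adjusted exact permutation p 0.139 and 0.431). Without R26-TIR1(F74G) replicate 7 it was also 0 of 10, although r for Ikzf1 and Ikzf3 was 0.89 in the other 9 libraries (adjusted exact permutation p 0.122).

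The genes most like each member over the libraries were sought among 12443 genes by Pearson's r over the 10 libraries, with group means removed. The r values describe these libraries and were picked as the highest of all genes searched. For Ikzf1 they were Uhmk1, Arfgef2 and Tgfbrap1, each with an r of 1.00 after rounding, and 1281 genes reached 0.9. For Ikzf3 they were Prdm2, Braf and Ube4a (r of 0.99 each, 1472 genes at 0.9 or more), and for Ikzf4 Calcrl, Wdr44 and Spata5 (r of 0.99 each, 847 genes). With the length trend removed, r stayed at 0.95 or more for the 3 genes of Ikzf1 and between 0.80 and 0.88 for those of Ikzf3. With Ikzf4 it was 0.97 for Wdr44, 0.25 for Calcrl and 0.22 for Spata5. Helios and Pegasus had few such genes. Cd200, a surface glycoprotein, Tardbp and Gm5915 were nearest to Ikzf2 (r of 0.92, 0.91 and 0.90), with 2 genes at 0.9 or more. Hbp1, Gm48062 and Emilin1 were nearest to Ikzf5 (r of 0.93, 0.92 and 0.92), with 6 such genes. With the trend removed, r was 0.39, 0.96 and 0.10 for the 3 genes of Ikzf2 and 0.52, 0.78 and 0.69 for those of Ikzf5.

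The partners and regulators of the family were read from gene lists. Calls in these and the later lists stand beside 1.74% of all tested genes called by DESeq2. At that share, 0 calls in lists this short say little about their genes. In the NuRD complex 0 of 13 genes were called, with a median log2 fold change of -0.01. Its most abundant members Rbbp4, a histone-binding subunit, and Mta2 had log2 fold changes of -0.06 (SE 0.10) and 0.15 (SE 0.14). Of the SIN3 and CTBP corepressors 0 of 6 were called (median -0.02), Ctbp1 at 0.11 (SE 0.16) and Sin3b at -0.10 (SE 0.09). Ctbp2, named here after its values were seen, had the largest difference of this list, -0.84 (SE 0.28, unadjusted p 0.00255 and adjusted p 0.108 in DESeq2), at means of 56.6 ± 12.9 normalized counts in the 4 R26-WT and 31.4 ± 8.88 (SD) in the 6 R26-TIR1(F74G) libraries. Of the cereblon ubiquitin ligase 0 of 5 were called (median -0.05). Crbn, the substrate receptor that binds thalidomide analogs, was at -0.13 (SE 0.08), and the adaptor Ddb1 at 0.17 (SE 0.36).

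Genes known as targets of the family in lymphocytes were listed without regard to the direction in which the family acts on them. Of 12 such genes, 8 were tested and 0 were called, against 1.74% of all tested genes. Of the 8, 7 log2 fold changes were positive, with a median of 0.21. Some positive genes, named here for their counts, had few raw counts per library (Ifng 8 to 34, Il10 10 to 79, Vpreb1 17 to 66). Dntt, the negative gene, had from 38 to 168. The most abundant, Dtx1, an E3 ligase of the Notch pathway, averaged 25169 ± 7175 normalized counts (SD) over the 4 R26-WT and 32207 ± 4852 (SD) over the 6 R26-TIR1(F74G) libraries, and its log2 fold change was 0.36 (SE 0.19, adjusted p 0.845 in DESeq2). Myc was at 0.05 (SE 0.10). Il2, which Eos and Ikaros repress and which was singled out here after its values were seen, had from 1 to 20 raw counts per library and a log2 fold change of 0.36 (SE 0.54, adjusted p 0.99996 in DESeq2). Ptcra was at 0 in all 10 libraries. Among 4 genes used with Helios to tell T_reg cells of thymic from peripheral origin, 0 were called (median -0.14), and Nrp1 was at -0.15 (SE 0.23) and Gata3 at -0.12 (SE 0.12).

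The labelled cell type was checked against its markers. Of 7 genes of T_reg and T cell identity 0 were called (median -0.11), and Cd3e and Cd3g had group means from 42660 to 47267 normalized counts. Ctla4 and Il2ra, genes typical of T_reg cells and named here after their values were seen, had the lowest log2 fold changes of the list, -0.31 (SE 0.13, unadjusted p 0.0204 and adjusted p 0.448 in DESeq2) and -0.29 (SE 0.20, adjusted p 0.99996). The Foxp3 transcript differed by less than its spread, at a log2 fold change of 0.07 (SE 0.25, adjusted p 0.99996 in DESeq2) and, as for Ikzf1, its highest value in R26-TIR1(F74G) replicate 7 (16059). The degron acts on the protein, so this transcript does not check the genotype. Markers of other cells bear on Ikzf1 and Ikzf3, which those cells also express. The defining B cell genes Ms4a1 and Pax5 had at most 4 raw counts in any library. Cd79a and Cd79b, the signalling chains of the B cell receptor, had from 130 to 333 and from 370 to 1341 raw counts, with log2 fold changes of -0.24 (SE 0.18) and -0.33 (SE 0.20). Of 4 tested genes of the B cell list 1 was higher and 1 lower. Cd22 was higher (a mean of 12.2 ± 4.82, SD, over the 4 R26-WT and of 77.9 ± 95.9, SD, over the 6 R26-TIR1(F74G) libraries, adjusted p 0.00266 in DESeq2). R26-TIR1(F74G) replicate 9 had 272.5 of it, and the other 5 libraries of that genotype had from 23.6 to 51.2 with a mean of 38.9. Without replicate 9 the log2 fold change went from 2.68 to 1.69 (adjusted p 0.00271 in DESeq2). Ighm was lower (22732 ± 4183 and 15660 ± 1570, adjusted p 0.0137). Neither passed in edgeR (adjusted p 0.230 and 0.118). The summed B cell list, nearly all Ighm, ran from 19070 to 29059 in R26-WT and from 13500 to 18788 in R26-TIR1(F74G). Its part in the values of Ikzf1 and Ikzf3 was not tested. The plasma cell, myeloid, CD8 and NK cell and erythroid lists had 0 called genes of 3, 3, 5 and 1 tested. Their summed normalized counts overlapped between the groups (10746 to 11454 and 10200 to 13040, 74.4 to 125 and 92.0 to 155, 1865 to 2560 and 1403 to 2269, and 10.1 to 25.6 and 6.08 to 15.9, R26-WT first), and Ncr1 was at 0 in all libraries.

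**Figure D5:**
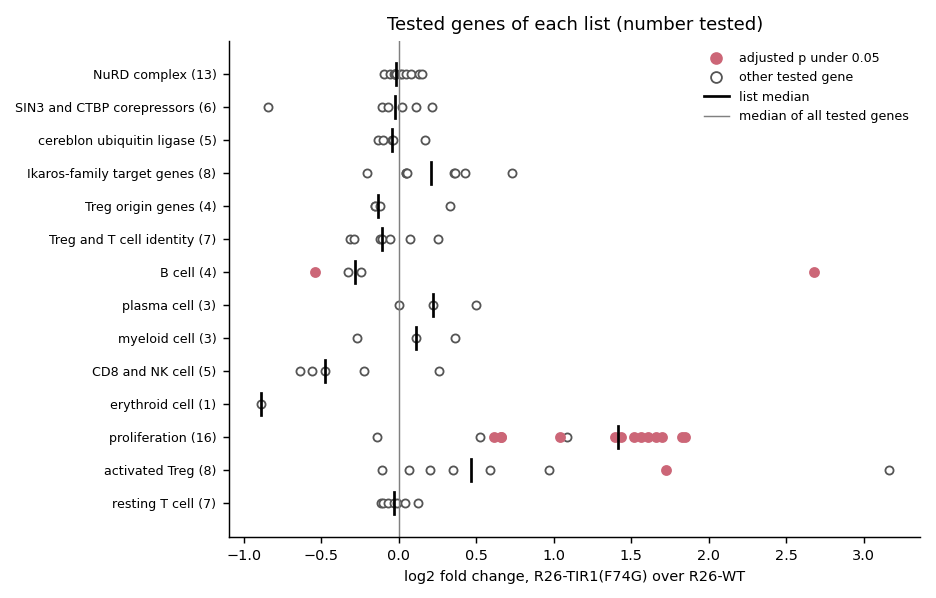
Log2 fold change of R26-TIR1(F74G) over R26-WT (horizontal axis) of each tested gene in the lists of partners, targets, cell type markers and cell states. Red points passed a DESeq2 adjusted p of 0.05, black bars are list medians and the grey line is the median of all tested genes. Called genes appear in the proliferation (13 of 16), B cell (2 of 4) and activated T_reg (1 of 8) lists.

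Lists of cell state genes were read beside the family. Of 16 proliferation genes 13 rose in R26-TIR1(F74G) and 0 fell, with a median log2 fold change of 1.41. Rrm2, a subunit of ribonucleotide reductase, averaged 629 ± 116 normalized counts (SD) over the 4 R26-WT and 1701 ± 423 (SD) over the 6 R26-TIR1(F74G) libraries, and its log2 fold change was 1.43 (SE 0.21, adjusted p 3.39e-09 in DESeq2). The mitotic kinase Cdk1 was at 1.39 (SE 0.21, DESeq2 adjusted p 1.12e-08). In edgeR 5 of the 16 passed. The summed list ran from 12539 to 18235 normalized counts in R26-WT and from 20764 to 31304 in R26-TIR1(F74G), without overlap. Of 8 genes of activated T_reg cells Tigit, a coinhibitory receptor, rose by 1.73 on the log2 scale (SE 0.45, adjusted p 0.0102 in DESeq2 and 0.245 in edgeR). Its normalized counts were low and overlapped, from 22.8 to 77.7 in R26-WT and from 71.4 to 337 in R26-TIR1(F74G). The most abundant genes of the list, Icos and Cd44, were at 0.35 (SE 0.23) and 0.20 (SE 0.15). The list median was 0.47, with 7 log2 fold changes positive and 1 negative. Of 7 genes of resting T cells 0 were called (median -0.03), with Klf2 at -0.11 (SE 0.14). Their part in the values of the 5 members was not tested.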

How the data were processed

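RNA-seq counts of 10 libraries (4 R26-WT, 6 R26-TIR1(F74G)) were analysed. The authors deposited raw counts of read pairs for each gene, without normalization. Per the file headers, featureCounts 2.1.1 counted primary alignments of a mapping quality of at least 30 against GENCODE M30 without a strand option. The submitters' processing notes name Bowtie2 and mm39, and the study's methods name STAR. The study's methods describe amplified cDNA for bulk libraries of adult female mice, and give no preparation for these male ones. Where cDNA was amplified, counting errors are a lower limit.

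Tests covered genes whose mean count reached 10 and were run in R 4.3.3 with DESeq2 1.42.0 (two-sided Wald test, ~genotype, Benjamini-Hochberg adjusted p under 0.05 over all 16363 tested genes). The procedures were tested on simulated data. TPM used the gene lengths in the files. Correlations used exact permutation within groups (Python 3.11.15, scipy 1.17.1). Trends on gene length were lowess curves. Alternatives were edgeR 4.0.16, limma 3.58.1 (voom), TMM scaling, other count minimums, removal of the length trend, 1 surrogate variable (sva 3.50.0) and leaving out each library. Sequences came from GENCODE M39.

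The members, gene lists and tests were chosen with earlier results of these data known. Named genes were the members, Foxp3, the called (at most 6) and the 2 most abundant genes of each list with at least 3 tested genes, and the 3 genes most like each member. Lists covered the NuRD complex, SIN3 and CTBP corepressors, the cereblon ubiquitin ligase, targets, T_reg origin and identity, B, plasma, myeloid, CD8 and NK, and erythroid cells, proliferation, and activated and resting T cells. Some genes that this rule names are not reported here.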

Additional observations from a re-analysis of the deposited data

Results flagged for a closer look

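Of 24 groups of values examined for a library far from the others (the total count, Foxp3, and each member before and after removal of the length trend, in each genotype), 4 held such a library, where chance gives 1.2. The groups are not independent, since the same libraries enter each. The normalized count of Ikzf1 was 13792 in R26-TIR1(F74G) replicate 7, and the other 5 libraries of that genotype had from 6423 to 8890. Foxp3 had 16059 in the same library, against 6778 to 9851 in the others. With the length trend removed, Ikzf1 was still apart in that library, at 10877 against 7354 to 8460. Ikzf3, also with the trend removed, was apart in R26-WT replicate 2, at 5287 against 4281 to 4332 in the other 3.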

How the results depend on the processing

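No member was called in any of 85 alternative fits (17 for each member), and the smallest unadjusted p among them was 0.0479. The sign of Ikzf1 turned with 1 surrogate variable (log2 fold change -0.0099), and leaving out single libraries moved it from -0.048 (without R26-TIR1(F74G) replicate 7) to 0.28 (without R26-WT replicate 2). The signs of the other 4 members held in all 17 fits of each, but their sizes moved by over 1.5 times without single libraries. Ikzf2 ranged from -0.23 (without R26-TIR1(F74G) replicate 9) to -0.09 (without R26-WT replicate 2), and Ikzf3 from 0.04 (without R26-WT replicate 3) to 0.33 (without R26-WT replicate 2). Ikzf4 ranged from 0.04 (without R26-WT replicate 3) to 0.18 (without R26-WT replicate 1), and Ikzf5 from -0.23 (without R26-WT replicate 4) to -0.03 (without R26-WT replicate 2). The number of genes called over the whole table was 284 and moved to 61 with edgeR, 80 with limma and 743 with 1 surrogate variable. It lay between 187 (without R26-WT replicate 4) and 346 (without R26-WT replicate 2) when single libraries were left out. Of the genes in the lists 16 were called, against 5 with edgeR, 8 with limma and 21 with 1 surrogate variable. Without single libraries it was from 9 (without R26-WT replicate 4) to 17 (without R26-TIR1(F74G) replicate 9). With canonical transcript lengths 2 of 5 members kept their rank by level. The 1 correlated pair of members became 0 with the length trend removed and 0 without R26-TIR1(F74G) replicate 7. The causes of these changes were not tested. No paired analysis was possible because replicates 1 to 4 and 5 to 10 have no number in common. Counts of 79 to 167 limit the precision for Ikzf5.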
